A study of Mus musculus with 8 samples.

Results

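The gene expression of gastrocnemius (GC) muscle from LONP1 mKO mice was compared with that of WT muscle at 2 weeks of age. The comparison covered 11558 genes, out of 24346 rows in the table for this age. A gene was taken when the authors' comparison had the status OK, as 13377 rows did, and when its FPKM was at least 1 in either group. FPKM counts sequenced fragments relative to the length of the exons and to all mapped fragments of a library, so it is a level per gene length. The change of a gene was the log2 ratio of FPKM + 1 in LONP1 mKO over WT muscle, and a gene was counted as higher or lower when this ratio was at least 1.5-fold.

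The series held 8 C57BL/6J mice in 4 groups of 2, WT and LONP1 mKO at the ages of 2 and 6 weeks. In LONP1 mKO mice both copies of Lonp1 carry loxP sites and Cre is driven by the human skeletal actin (HSA) promoter, which is active in postnatal muscle fibres, so that other cells of the muscle keep the gene. The study describes efficient loss of LONP1 as reached only about a week after birth. WT mice were wild-type by their labels, and the sex of the 2-week mice was not labelled, although the methods of the study name male offspring. The Y-linked genes Ddx3y (20.3 FPKM in WT and 24.7 in LONP1 mKO) and Eif2s3y (37.6 and 43.4) were expressed in both groups, and Xist, which is transcribed from the inactive X chromosome of females, was at 0.00288 and 0.00535 FPKM. At 6 weeks Xist was at 0.00311 FPKM in the WT group and 6.11 FPKM in the LONP1 mKO group, where Ddx3y was at 8.24 and 10.9 FPKM, so that the older LONP1 mKO group held RNA from both Xist and the Y chromosome. The table gives 1 FPKM value per group, made by the authors from both mice together. Single mice have no values of their own here, hence no SD between mice and no test across mice is given, and the number of fragments behind a value is unknown.

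LONP1 is an ATP-dependent protease of the mitochondrial matrix that degrades misfolded and damaged proteins. When protein handling in mitochondria is disturbed, cells can activate the integrated stress response, in which kinases phosphorylate the translation factor eIF2α, the mRNA of the transcription factor ATF4 is translated more efficiently, and ATF4 with its partners switches on genes for amino acid synthesis, amino acid uptake and tRNA charging. In muscle this response also includes the secreted hormones FGF21 and GDF15. A second response, controlled by ATF6 and IRE1, raises chaperones of the endoplasmic reticulum (ER).

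ATF4 and its C/EBP partners bind the C/EBP-ATF response element, here written TGATGNAA. It was searched on both strands in the 250 bases before the start of each gene, in RefSeq promoter sequences of the mouse genome build GRCm38.p6. Of the 74 genes on the stress response lists described in the next paragraphs, 54 had a sequence, and 9 of these (16.7%) held the element. Of all 8794 genes of the comparison with a sequence, 206 (2.34%) held it, and of all 27025 genes with a promoter sequence 3.91%. The stretches around 7 of these elements are printed 5′ to 3′ on the strand of the gene, since they belong to genes of the response described next. Capitals mark the element, or its complement where the element is read on the other strand.
Fgf21: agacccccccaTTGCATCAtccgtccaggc
Asns: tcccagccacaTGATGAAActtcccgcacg
Atf3: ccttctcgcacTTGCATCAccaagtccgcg
Pycr1: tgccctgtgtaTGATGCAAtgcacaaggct
Gars: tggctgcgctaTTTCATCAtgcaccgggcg
Nupr1: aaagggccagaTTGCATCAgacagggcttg
Tars: caggagtcccgTTGCATCAgctggtt
The stretch of Fgf21 lies at chr7:45615611-45615640 on the minus strand, with the element 139 to 132 bases before the start of the gene. That of Asns lies at chr6:7693214-7693243 on the minus strand, with the element 23 to 16 bases before the start. Atf3 (chr1:191183425-191183454), Pycr1 (chr11:120643833-120643862), Nupr1 (chr7:126625562-126625591) and Tars (chr15:11399659-11399684) are also on the minus strand, and Gars (chr6:55037960-55037989) is on the plus strand. Of these 7 genes, Fgf21, Asns, Atf3, Pycr1 and Gars were at least 1.5-fold higher in LONP1 mKO muscle. Nupr1 (25.8 FPKM in WT and 35.4 in LONP1 mKO) and Tars (20.7 and 26.8) were higher by less. Chac1, which also holds the element, was at 38.2 FPKM in WT and 34.9 in LONP1 mKO muscle. Among all 207 genes counted as higher and with a promoter sequence, 7 (3.38%) held the element. The stress response lists were drawn up from known genes of that response, so the share of 16.7% describes the lists and not the 2-week values. A match of letters is a description of the sequence and does not show binding.

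Lonp1 (chr17:56614298-56626903 in mm10) was at 46.0 FPKM in the WT group and 7.16 FPKM in the LONP1 mKO group, so that 15.6% of the WT level was left. Of the 11558 genes, 298 (2.58%) were higher in LONP1 mKO muscle and 93 (0.805%) were lower. The other 96.6% differed by less than 1.5-fold, the middle of all changes was 0.07, and 90% of genes lay between −0.25 and 0.41 on the log2 scale. A difference of at least 2-fold was found for 102 genes that were higher and 27 that were lower, and of at least 4-fold for 19 and 4. Higher genes made up 76.2% of those past 1.5-fold on the deposited values and 66.2%, with 241 higher and 123 lower, when the median change of all genes was set to 0. The genes nearest the threshold were Smim3 (0.585206) and Pak1 (−0.585489) inside it and Spsb1 (0.583833) and Acsl6 (−0.582819) outside it. At the expression floor, Wbscr27 with 1.00013 FPKM in its larger group was just inside and Atm with 0.999319 FPKM just outside.

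**Figure D1:**
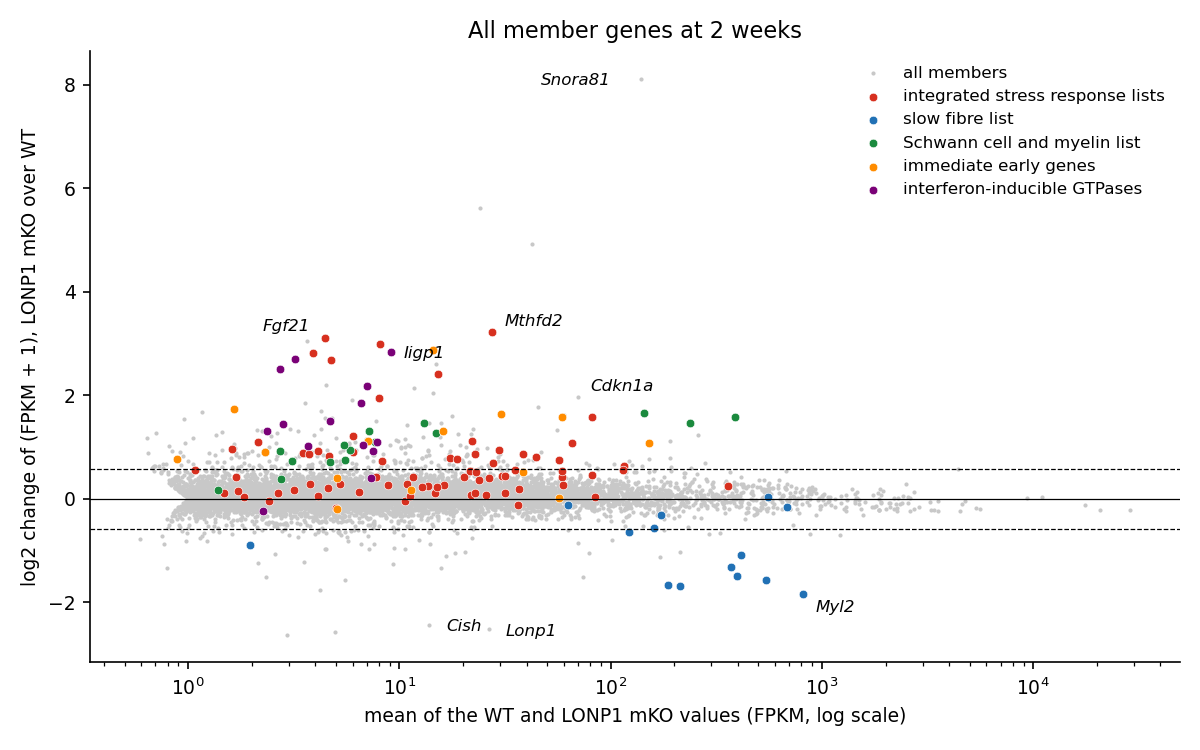
Each point is a gene of the 2-week comparison, with the mean of its WT and LONP1 mKO FPKM on the log-scaled x axis and its log2 change of (FPKM + 1) on the y axis, and dashed lines mark 1.5-fold. Most genes lie between the lines, the stress response lists, immediate early genes, interferon-inducible GTPases and Schwann cell genes reach above them, and the slow fibre genes reach below them at levels of 100 FPKM and more for most of the list.

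Many genes of the integrated stress response were higher in LONP1 mKO muscle. The lists covered transcription factors and feedback genes, serine and glycine synthesis, and the folate cycle together with proline synthesis. They also covered asparagine and glutathione synthesis, amino acid transporters and the cytosolic tRNA synthetases. Of their 74 genes in the comparison, 28 were higher and 0 were lower, against 2.58% and 0.805% of all genes, and 70 lay above 0, of which 65 lay above the median of all genes. The median change was 0.43, against 0.07 for all genes.

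Of 19 genes on the list of transcription factors and feedback genes, which also holds the eIF2α kinases and the hormone genes Fgf21 and Gdf15, 10 were higher, with a median change of 0.63. Atf4 itself was at 90.3 FPKM in the WT group and 140.3 FPKM in the LONP1 mKO group (change 0.63). Atf5, a related factor linked to mitochondrial stress, was at 40.3 and 122 FPKM (1.58). Atf3 was at 42.1 and 89.6 FPKM (1.07) and Ddit3, which encodes CHOP, at 19.9 and 39.1 FPKM (0.94), both being factors downstream of ATF4. Trib3, a pseudokinase that restrains ATF4 and AKT signalling, was at 0.545 and 8.94 FPKM (2.69). Ppp1r15a, whose product GADD34 returns phosphorylated eIF2α to its resting state, was at 5.97 and 10.6 FPKM (0.74). Sesn2, a leucine sensor that restrains mTORC1, was at 0.996 and 3.30 FPKM (1.11). The response was not uniform. Chac1, a glutathione-degrading enzyme and a known ATF4 target, was within 1.5-fold, as was Cebpb (83.0 and 84.9 FPKM). The 4 eIF2α kinases were also within 1.5-fold, with changes of 0.26 for Eif2ak1, 0.16 for Eif2ak2, −0.04 for Eif2ak3 and 0.03 for Eif2ak4.

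The 2 hormone genes of this list were at low levels in WT muscle. Fgf21, which acts on liver, fat and brain, was at 0.127 FPKM in the WT group and 8.75 FPKM in the LONP1 mKO group (3.11). Gdf15, which reduces food intake through a receptor in the hindbrain, was at 0.216 and 7.60 FPKM (2.82). Both WT values lie far below 1 FPKM, and the size of their ratio depends on the added 1 FPKM.

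Mthfd2 (chr6:83305704-83317604), which encodes an enzyme of the mitochondrial folate cycle, was at 4.49 FPKM in the WT group and 50.3 FPKM in the LONP1 mKO group (3.22). Aldh1l2, which completes the mitochondrial branch of this cycle, was at 3.05 and 6.21 FPKM (0.83). The cytosolic counterpart Mthfd1 was at 14.1 and 15.3 FPKM (0.11). In serine synthesis, Phgdh, the first enzyme, was at 3.90 and 8.17 FPKM (0.91) and Psat1, the second, at 4.13 and 26.2 FPKM (2.40), whereas the last enzyme Psph was at 7.87 and 9.70 FPKM (0.27). In proline synthesis from glutamate, Aldh18a1 was at 3.23 and 8.82 FPKM (1.22) and Pycr1 at 2.14 and 4.82 FPKM (0.89). The enzymes of the folate cycle and of serine synthesis thus differed unequally among themselves. Asns, asparagine synthetase, was at 1.05 and 15.2 FPKM (2.98), and Cth, which makes cysteine, at 0.773 and 2.44 FPKM (0.95).

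Of 11 amino acid transporters, 5 were higher, and 10 of the 11 lay above the median of all genes. Slc7a5 and Slc3a2 encode the chains of the transporter that exchanges glutamine for leucine, and they were at 2.73 and 13.3 FPKM (1.94) and at 13.7 and 30.6 FPKM (1.11). Slc7a1, for arginine and lysine, Slc6a9, for glycine, and Slc38a2, for small neutral amino acids, had changes of 0.86, 0.92 and 0.76. All 20 cytosolic tRNA synthetases lay above 0, and 19 above the median of all genes, with a median change of 0.44. The synthetases past the threshold were Gars (26.9 and 50.1 FPKM, 0.87), Wars (15.9 and 29.6, 0.86), Sars (31.9 and 57.0, 0.82), Lars (13.7 and 23.9, 0.77) and Iars (21.1 and 34.6, 0.69). Those nearest to 0 were Rars (0.07) and Farsa (0.07). The mitochondrial tRNA synthetases are mostly encoded by separate genes, and of 17 of these 0 were higher and 0 lower, with a median of 0.07.

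**Figure D2:**
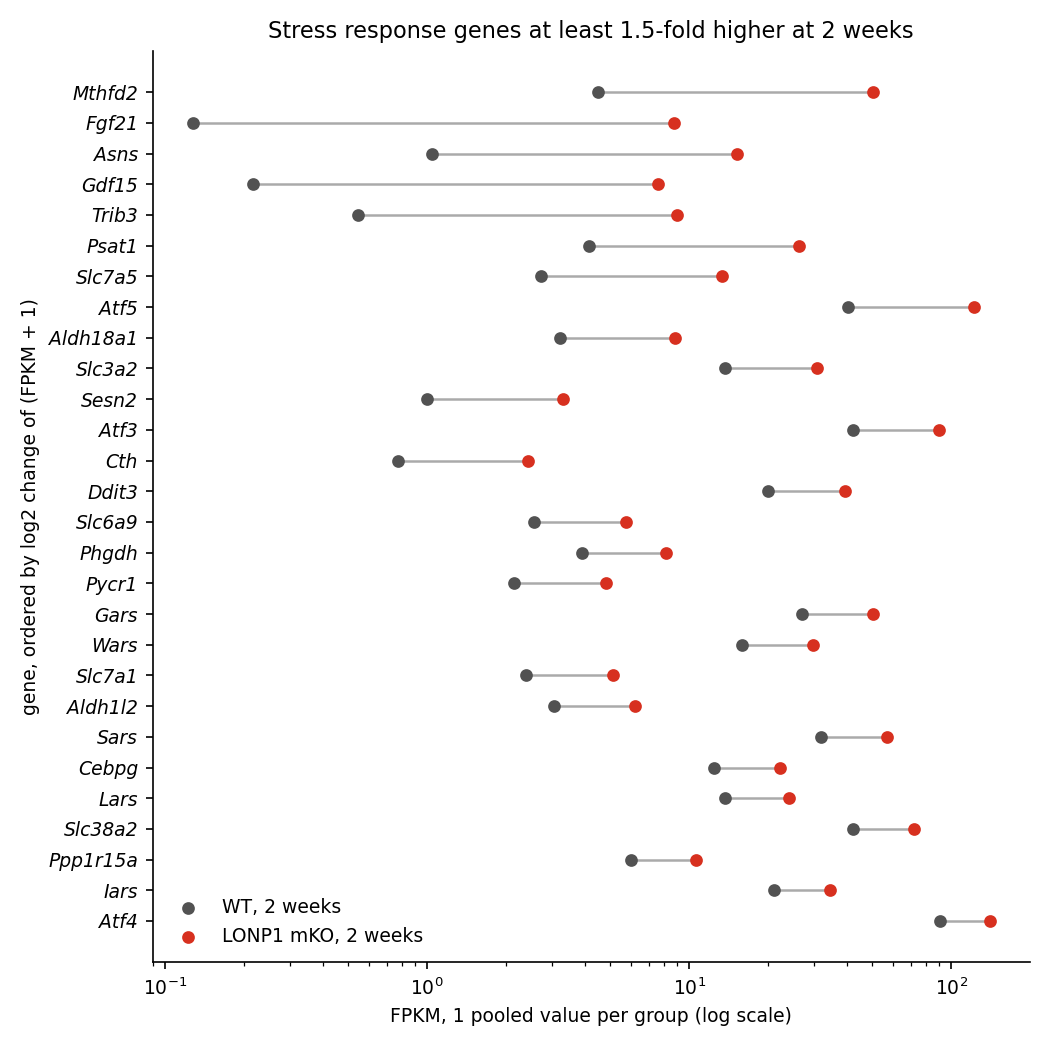
The 28 genes of the stress response lists that were at least 1.5-fold higher are shown, with the WT value in grey and the LONP1 mKO value in red on a log-scaled FPKM axis, 1 value per group from 2 mice. Genes are ordered by their log2 change, from Mthfd2 (4.49 and 50.3 FPKM) at the top to Atf4 (90.3 and 140.3 FPKM) at the bottom.

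ER chaperones and targets of ATF6 and IRE1 were within 1.5-fold. Of 20 such genes 0 were higher and 0 lower, against 2.58% and 0.805% of all genes, although all 20 lay above 0, and 17 above the median of all genes, with a median of 0.23. The median of the folate cycle list, which also holds Pycr1 of proline synthesis and where 4 of 11 genes were higher, was 0.22. Hspa5, which encodes the ER chaperone BiP, was at 90.1 FPKM in the WT group and 113 FPKM in the LONP1 mKO group (0.32), and Xbp1 at 29.2 and 34.6 FPKM (0.23). The ER stress element, written as CCAAT and CCACG with 9 bases between them, was found in 8 of 17 ER chaperone promoters (47.1%), in 0 of the 54 stress response promoters and in 0.159% of all promoters of the comparison. Both lists were drawn up from known genes of each response, so these shares describe the lists and not the 2-week values. Of 13 heat shock genes 12 lay above 0, with a median of 0.27, and 1 was higher, against 2.58% of all genes, namely Hspa1b, which shares reads with its near-identical copy Hspa1a.

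Most mitochondrial genes, like 96.6% of all genes, were within 1.5-fold. Of 79 nuclear genes for subunits of the respiratory chain and ATP synthase, 0 were higher and 0 were lower, against 2.58% and 0.805% of all genes, so that these counts and those of the shorter mitochondrial lists are near the background. Their changes lay between −0.26 and 0.29 with a median of −0.11, and 14 of the 79 lay above 0. The median was −0.08 for 37 genes of complex I, −0.17 for 4 of complex II, −0.15 for 9 of complex III, −0.15 for 14 of complex IV and −0.11 for 15 of ATP synthase. Of 26 symbols searched for genes of mitochondrial DNA, 0 were found among the rows, so these genes could not be analysed here. Of the 18 mitochondrial proteases, Lonp1 was the one gene past the threshold. Clpp, the other matrix protease with a ring of ATPase subunits, was at 31.8 and 31.9 FPKM, and its ATPase Clpx at 31.1 and 32.2 FPKM. The inner membrane proteases Afg3l2 (37.9 and 40.3 FPKM), Yme1l1 (15.2 and 17.3) and Oma1 (15.8 and 16.0) differed as little.

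Mitochondrial chaperones had a median change of 0.15 over 11 genes, and 9 of these lay above 0 and 8 above the median of all genes. Hspa9, the HSP70 of the matrix, came closest to the threshold with 157 FPKM in the WT group and 229 FPKM in the LONP1 mKO group (0.54). Hspd1 and Hspe1, which form the HSP60 chamber and its lid, were at 108 and 130 FPKM (0.28) and at 135 and 160 FPKM (0.24). Of 20 genes of protein import, 76 of the mitochondrial ribosome, 18 of the tricarboxylic acid cycle, 22 of fatty acid oxidation and 16 of mitochondrial DNA maintenance, 0 were higher and 0 were lower in each list. The fusion and fission genes Opa1 (21.1 and 21.2 FPKM), Mfn1 (38.5 and 41.4), Mfn2 (132 and 130.5) and Dnm1l (22.2 and 25.2) were also within 1.5-fold. In coenzyme Q synthesis Adck3, which encodes the kinase-like protein COQ8A, was lower, with 215 and 142 FPKM (−0.60), just past the threshold.

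Genes of protein degradation were within the threshold, as were 96.6% of all genes. Of 38 autophagy and lysosome genes 0 were higher and 0 lower, with a median of 0.09, and of 31 proteasome subunits 0 and 0, with a median of 0.10. The cargo receptor Sqstm1, known as p62, was at 215 and 279 FPKM (0.37), Map1lc3b, an LC3 gene, at 99.4 and 106 FPKM (0.10), and Tfeb, a regulator of lysosomal genes, at 41.7 and 41.6 FPKM. All 15 genes of the atrophy list, which holds ubiquitin ligases and FoxO factors, lay above 0, and 14 above the median of all genes, with a median of 0.20, and 0 of them passed 1.5-fold. Trim63, or MuRF1, was at 124 and 179 FPKM (0.53), Fbxo32, or atrogin-1, at 11.1 and 14.8 FPKM (0.39) and Foxo1 at 5.51 and 8.50 FPKM (0.54).

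**Figure D3:**
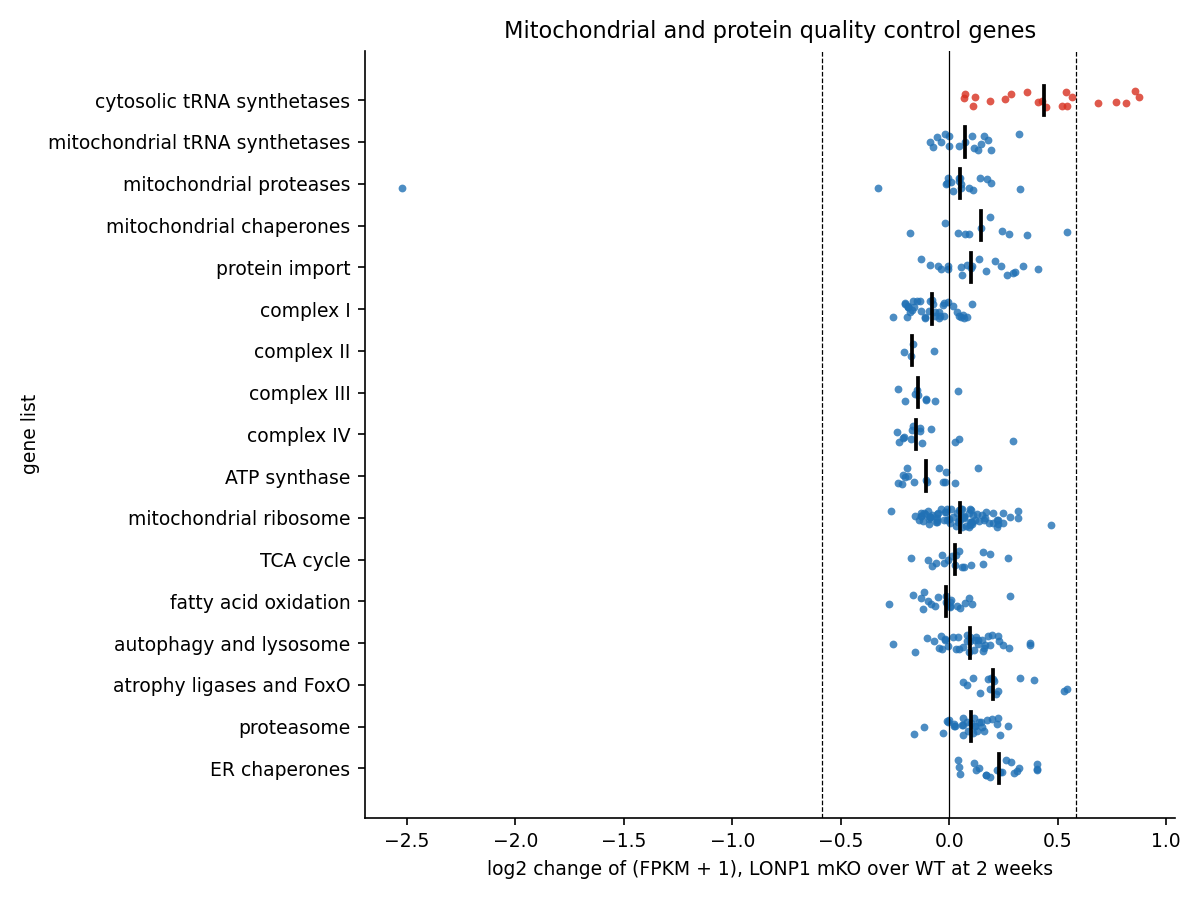
Each point is a gene, placed by its log2 change of (FPKM + 1) at 2 weeks, each row is a gene list, black bars are list medians and dashed lines mark 1.5-fold. Lonp1, at −2.52, stands alone at the left of the protease row, the cytosolic tRNA synthetases (red) lie above 0 throughout, and the rows of complexes I to IV and ATP synthase have medians between −0.17 and −0.08.

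Among other stress genes, 5 of 12 targets of p53 were higher and 0 lower, against 2.58% and 0.805% of all genes, with a median change of 0.46. The same background of 2.58% higher and a median of 0.07 for all genes applies to the 2-week values of each list in the next paragraphs. Cdkn1a, which encodes the cell cycle inhibitor p21, was at 28.0 FPKM in the WT group and 112 FPKM in the LONP1 mKO group (1.97). Phlda3, an AKT inhibitor, was at 10.8 and 27.2 FPKM (1.26), Eda2r, a receptor of the TNF family, at 3.97 and 8.54 FPKM (0.94), and Gadd45a at 36.7 and 56.0 FPKM (0.60). Sesn2, described with the stress response, is the fifth. Mdm2, the classical feedback target of p53, was at 16.6 and 21.0 FPKM (0.32), and Ccng1 at 216 and 271 FPKM (0.33). Of 13 antioxidant targets of NRF2, 2 were higher, Srxn1 (12.6 and 31.2 FPKM, 1.25) and Nqo1 (2.84 and 4.89 FPKM, 0.62).

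Of 14 immediate early genes, which cells switch on within minutes of a stimulus, 9 were higher and 0 lower, against 2.58% higher of all genes, with a median change of 0.99. Fos was at 2.68 and 26.2 FPKM (2.88), Fosb at 0.227 and 3.08 FPKM (1.74), Junb at 8.78 and 23.3 FPKM (1.31) and Btg2 at 29.2 and 88.7 FPKM (1.57). The nuclear receptors Nr4a1 and Nr4a3, both regulators of muscle metabolism, were at 97.6 and 206 FPKM (1.07) and at 14.2 and 46.4 FPKM (1.64). Their relative Nr4a2 was at 1.97 and 6.59 FPKM, so that 3 of 3 genes of this family, gathered after values were seen, were higher, with a median of 1.35. The other members were within 1.5-fold, namely Jun (31.4 and 45.2 FPKM, 0.51), Myc (4.23 and 5.89 FPKM, 0.40), Ier2 (10.6 and 12.0 FPKM, 0.17), Dusp1 (56.7 and 57.3 FPKM, 0.01) and Ier3 (5.50 and 4.65 FPKM, −0.20). Egr2 (1.31 and 3.31 FPKM) also belongs to the Schwann cell list. Of 15 clock genes 0 were higher and 0 lower.

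Of the gene lists, the slow fibre list had the most lower genes. Of 14 slow fibre genes 0 were higher and 9 were lower, against 0.805% lower of all genes, and the median change was −0.997. The slow troponin genes Tnni1 (326 and 101 FPKM, −1.68), Tnnt1 (582 and 207 FPKM, −1.49) and Tnnc1 (531 and 213 FPKM, −1.31) were among the lower genes. The regulatory light chain Myl2 was at 1266 FPKM in the WT group and 355 FPKM in the LONP1 mKO group (−1.83). The essential light chain Myl3 was at 814 and 274 FPKM (−1.57), the tropomyosin gene Tpm3 at 567 and 265 FPKM (−1.09) and the slow calcium pump Atp2a2 at 150 and 95.3 FPKM (−0.65). Not all members moved alike. The slow calsequestrin Casq2 was at 65.4 and 60.3 FPKM (−0.12), Actn2 at 719 and 642 FPKM (−0.16), Myoz2 at 191 and 154 FPKM (−0.31) and Mybpc1, the slow myosin-binding protein C, at 550 and 565 FPKM (0.04).

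Single genes of other lists or of no list were also lower, and were picked after their values were seen. Myl6b, a light chain of slow fibres, was at 110 and 38.1 FPKM (−1.51), Sln, an inhibitor of the calcium pump, at 106 and 51.1 FPKM (−1.04), and Mb, the oxygen-binding myoglobin, at 1499 and 923 FPKM (−0.70). Embryonic myosin Myh3 was at 8.74 and 2.27 FPKM (−1.58), whereas neonatal myosin Myh8 was at 5.40 and 6.23 FPKM (0.18). Sln was the 1 lower gene of 16 for excitation and calcium handling (median 0.05), Mb was 1 of 2 lower among 9 muscle fibre genes (median −0.05), and Myh3 was the 1 lower gene of 11 of immature muscle (median 0.12), where 1 was higher. In contrast, 8 fast fibre genes had a median of −0.15 and 0 passed the threshold. Myh1, the gene of type IIx myosin, was at 816 and 716 FPKM, Myh2, of type IIa myosin, at 643 and 529 FPKM and Actn3 at 2523 and 2570.1 FPKM. Myh4, Mylpf and Tnnt3, among the most abundant fast fibre genes, were among the 12 rows whose estimate failed and have no usable value. The muscle genes Des (828 and 966 FPKM) and Ttn (97.4 and 112 FPKM) were expressed in both groups. Of 9 myogenic regulators 0 were higher and 0 lower, among them Myod1 (21.5 and 18.6 FPKM) and Myog (45.8 and 50.6 FPKM). In a bulk sample fewer cells of a type and less RNA per cell cannot be told apart, and this holds for each cell type and fibre type described here.

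Markers of peripheral nerve differed as a group in the other direction. Of 16 Schwann cell and myelin genes 14 were higher, against 2.58% of all genes, with a median change of 0.99, and the whole list summed to 435 FPKM in WT against 1261 FPKM in LONP1 mKO muscle. The myelin genes Pmp22 (127 and 350 FPKM), Mal (6.48 and 19.7 FPKM) and Prx (8.30 and 21.6 FPKM) differed by 1.28 to 1.47 on the log2 scale, and Sox10, the factor that defines these cells, by 0.70 (3.32 and 6.04 FPKM). Erbb3 (0.38) and Ngfr (0.17) did not pass the threshold. Of the 12 neuron genes 7 were below 0.1 FPKM in both groups, including Nefl (0.00818 and 0.00791 FPKM) and Snap25 (0.0731 and 0.0771 FPKM). Of the 4 in the comparison Uchl1 was higher (9.30 and 14.5 FPKM, 0.59), and Stmn2 (−0.01), Gap43 (−0.23) and Prph (−0.37) lay below 0. Some skin genes were higher as well, at low levels. Of 7 epidermal genes 4 were higher, Krt14 (0.872 and 3.61 FPKM), Krt5 (1.08 and 2.95), Krt1 (0.269 and 1.41) and Krt10 (4.62 and 7.90), and the list summed to 11.3 FPKM in the WT group and 22.2 FPKM in the LONP1 mKO group. Genes of red blood cells were lower in sum, at 839 FPKM in the WT group and 509 FPKM in the LONP1 mKO group, with 2 of 5 lower. The rows with joined symbols, Hba-a1,Hba-a2 (403 and 254 FPKM, −0.66) and Hbb-b1,Hbb-bs (1086 and 678 FPKM, −0.68), are not in these counts or this sum and were also lower. The nerve, skin and blood marker sums differed together with the slow fibre, interferon and immediate early genes, and their part in those values was not tested.

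The markers of most other cell types were within 1.5-fold, as were 96.6% of all genes. Of 12 endothelial genes, 10 of pericytes and smooth muscle, 11 of fibroblasts, 9 of macrophages and 10 of adipocytes, 0 were higher and 0 were lower. The medians were −0.15, −0.08, 0.12, −0.03 and −0.06. In tenocytes Prg4 (1.72 and 4.04 FPKM) and in satellite cells Sdc4 (23.1 and 38.8 FPKM) was the 1 gene past the threshold, while Pax7, which defines satellite cells, was at 0.879 and 1.01 FPKM.

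**Figure D4:**
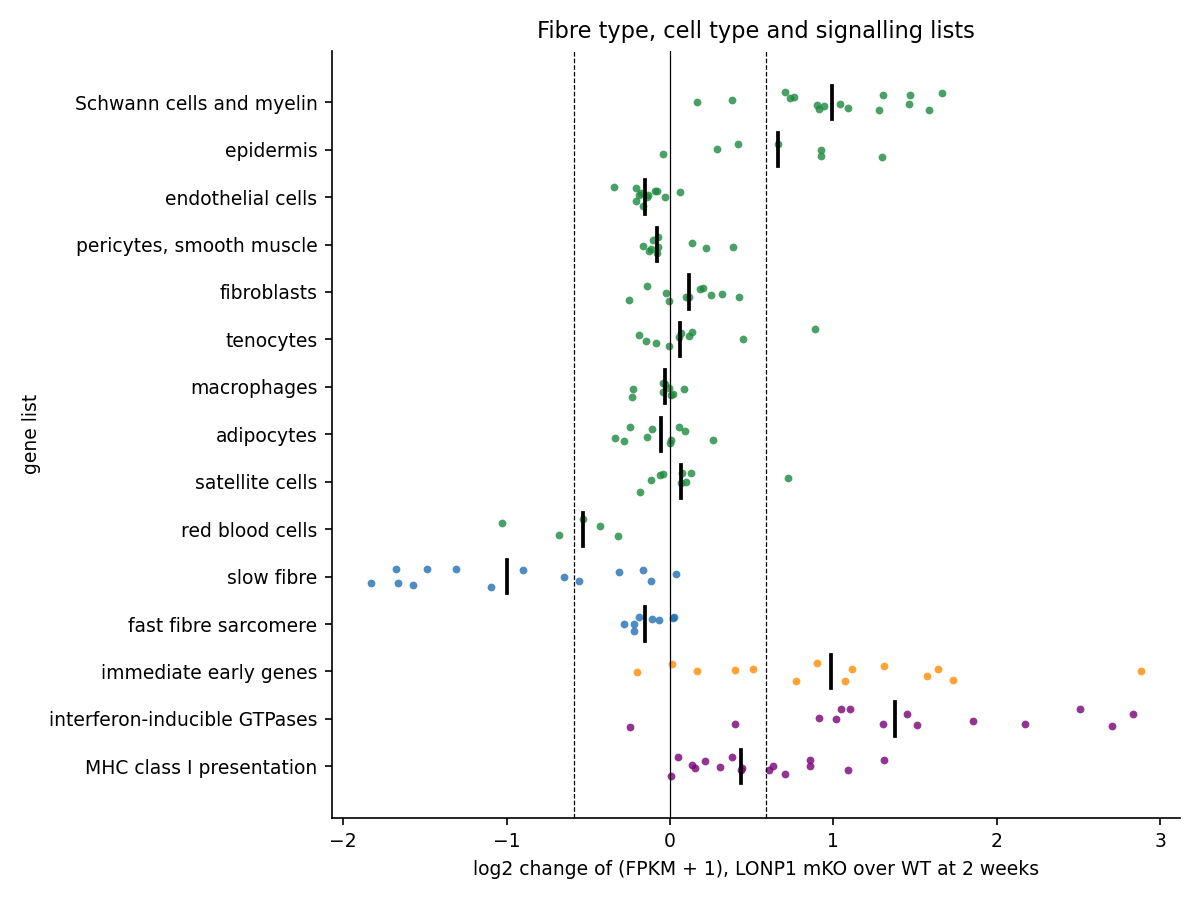
Genes of the fibre type, cell type and signalling lists are placed by their log2 change of (FPKM + 1) at 2 weeks, with black bars for list medians and dashed lines at 1.5-fold. Slow fibre genes (median −0.997) extend to the left, whereas Schwann cell genes (0.99), immediate early genes (0.99) and interferon-inducible GTPases (1.38) extend to the right.

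A further group of higher genes is known to respond to interferon. Of 11 interferon response genes 4 were higher, against 2.58% of all genes, Bst2 (17.2 and 34.9 FPKM, 0.98), Irf7 (1.61 and 3.66 FPKM, 0.84), Isg15 (3.18 and 6.04 FPKM, 0.75) and Rsad2 (1.19 and 2.39 FPKM, 0.63), with a median of 0.52. The interferon-inducible GTPases, which attack the vacuoles of intracellular parasites, were gathered as a family after the values of several members were seen. Of 14 members 12 were higher, with a median of 1.38. Tgtp1, Tgtp2 and Gbp6 (0.944 and 3.79 FPKM) reached 1 FPKM in the LONP1 mKO group alone, so their membership itself rests on the higher value. Over members of at least 1 FPKM in both groups the median was 1.10. Iigp1 was at 1.49 and 16.7 FPKM (2.83), Gbp4 at 1.91 and 12.1 FPKM (2.17), Gbp2 at 2.30 and 10.9 FPKM (1.85) and Igtp at 4.04 and 9.40 FPKM (1.05). Tgtp1 (0.118 and 6.30 FPKM) and Tgtp2 (0.111 and 5.31 FPKM) are near-identical copies between which reads may be divided, and their values are uncertain. The 2 members not higher were Irgm2 (6.20 and 8.48 FPKM, 0.40) and Gbp10 (2.52 and 1.97 FPKM, −0.24).

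The genes of MHC class I presentation, also gathered after values were seen, had 7 of 16 members higher and 16 of 16 above 0, of which 14 lay above the median of all genes, with a median of 0.44. They include Tap1, the peptide transporter (1.48 and 5.14 FPKM, 1.31), the immunoproteasome subunits Psmb9 (3.60 and 8.78 FPKM, 1.09) and Psmb8 (5.65 and 11.1 FPKM, 0.86), and B2m (110 and 170.5 FPKM, 0.63). H2-L, among the higher members (1.56 and 2.89 FPKM, 0.60), shares its locus with H2-D1 (50.8 and 66.4 FPKM, 0.38), which was within 1.5-fold. H2-T23 and H2-T24 share another locus, so that reads may be divided within each pair. No macrophage marker passed 1.5-fold. No lymphocyte marker reached 1 FPKM, the pan-leukocyte gene Ptprc was at 0.415 and 0.355 FPKM, and of 10 neutrophil genes 1 was in the comparison, S100a8 (0.903 and 1.57 FPKM). Of 7 inflammation genes 1 was higher, Cxcl10, a chemokine induced by interferon (0.335 and 1.03 FPKM).

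Among the other genes with the largest changes, Irs2, which passes the insulin signal on, was at 5.01 FPKM in the WT group and 23.8 FPKM in the LONP1 mKO group (2.04). Dusp26, a phosphatase, was at 3.67 and 19.7 FPKM (2.15), and Chrna9, an acetylcholine receptor subunit, at 0.960 and 8.03 FPKM. Cish (chr9:107296689-107301961), a feedback inhibitor of cytokine and growth hormone signalling through STAT5, was at 24.1 and 3.63 FPKM (−2.44). Egf was at 13.6 and 5.06 FPKM (−1.27), Tspan8, a tetraspanin, at 23.0 and 8.47 FPKM (−1.34) and Tceal7 at 235 and 108 FPKM (−1.12). Aldh1a7, an aldehyde dehydrogenase gene, was at 3.94 and 0.732 FPKM (−1.51) and BC048679, named by a clone, at 7.06 and 1.37 FPKM (−1.76). Some large values are uncertain by their locus. Snora81 (0 and 277 FPKM) and Snora23 (0 and 48.1 FPKM) are small RNA genes shorter than a sequenced fragment. Snurf (9.15 and 0.715 FPKM) and Snrpn (9.18 and 18.2 FPKM) share one locus, so that reads may be divided between them. Gm5083, Gm4737, Gm35612 (−1.22) and Gm1987 (−1.35) are gene models without an assigned function, and Apoo-ps is named as a pseudogene.

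By the same rule 11281 genes entered the 6-week comparison, and 835 (7.4%) were higher and 798 (7.07%) were lower there. The 6-week mice were other animals and their values are in a table of its own, whose scaling relative to the 2-week table is not given in the sources used here, so the changes are set side by side and their difference was not tested. Markers of other tissues also differed at 6 weeks. Nefl was at 0.00943 FPKM in the WT group and 11.8 FPKM in the LONP1 mKO group, Tubb3 at 0.0540 and 7.43 FPKM, Uchl1 at 4.86 and 34.5 FPKM and the neutrophil gene S100a8 at 1.70 and 129 FPKM, and Snap25 was listed at 0 in WT and at 3.25 FPKM in LONP1 mKO muscle. The part of these markers, and of the Xist difference, in the 6-week values was not tested. Of 10994 genes in both comparisons, 253 were higher at 2 weeks, and of these 110 (43.5%) were higher at 6 weeks, 118 were within 1.5-fold and 25 were lower. The 110 were 14.7% of the 747 genes higher at 6 weeks. Of 84 genes lower at 2 weeks, 27 (32.1%) were lower at 6 weeks, which is 3.59% of the 753 lower there, 39 were within 1.5-fold and 18 were higher.

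Gene groups differed in their values at the later age. Their 6-week counts and medians are to be read against 7.4% higher, 7.07% lower and a median of −0.04 for all genes at 6 weeks. All 28 stress response genes higher at 2 weeks were also higher at 6 weeks, when 45 of the 74 were higher. Chac1 (70.3 and 139 FPKM, 0.98) and Cebpb (62.5 and 125 FPKM, 0.99) were among those past the threshold at the later age alone. Of the 5 p53 targets 4 were higher at both ages, and Phlda3 was lower at 6 weeks (238 and 124 FPKM, −0.93). The 12 interferon-inducible GTPases were not higher at 6 weeks, where 0 of 14 were higher, 4 were lower and the median was −0.36. For Schwann cell genes in both comparisons the median was −0.06 at 6 weeks. The 79 respiratory subunits had a median of −0.24 at 6 weeks, with 2 higher and 4 lower, counts that are not above the 6-week shares of all genes. Slow fibre genes had a median of 0.97 at 6 weeks, with 11 of 14 higher. Cish was at 3.22 and 3.45 FPKM at 6 weeks.

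**Figure D5:**
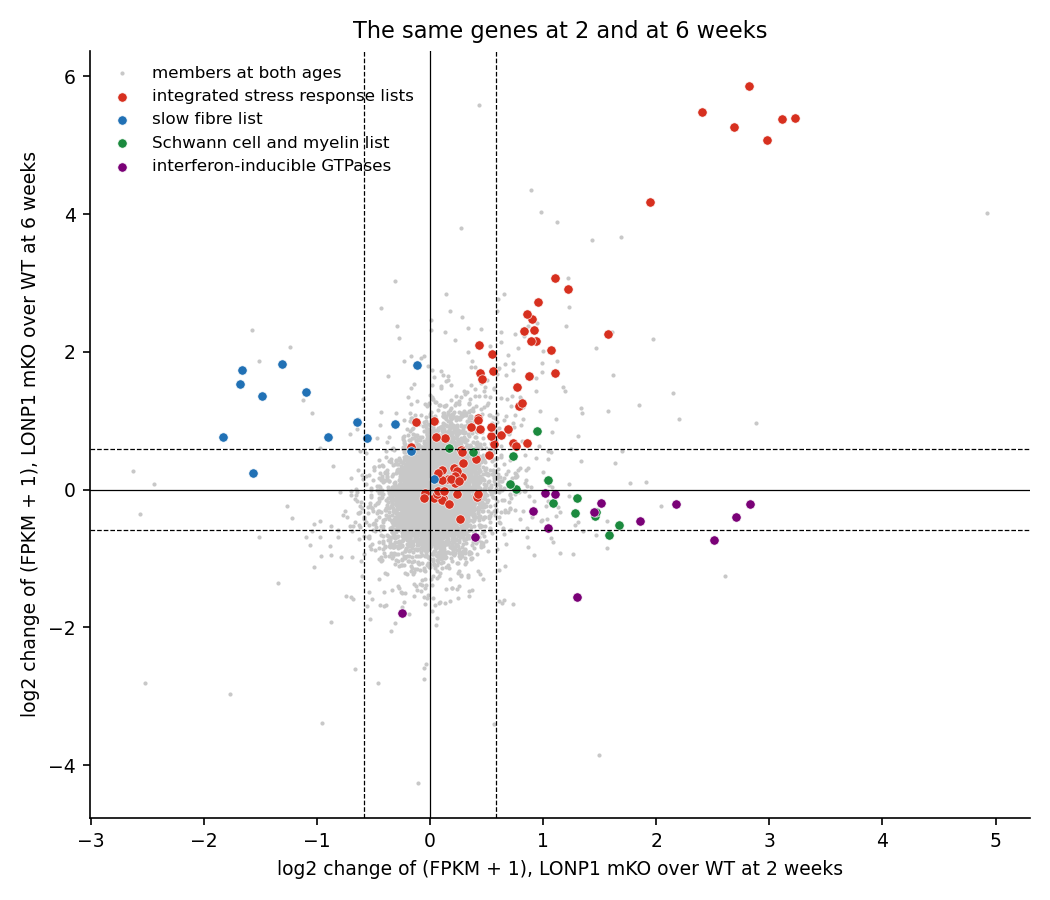
Each point is one of the 10994 genes in both comparisons, with its log2 change of (FPKM + 1) at 2 weeks on the x axis and at 6 weeks on the y axis, and dashed lines mark 1.5-fold. Of the 74 stress response genes (red), 28 lie at the upper right past both lines, and the others lie between the vertical lines. Slow fibre genes (blue) lie at the upper left. Schwann cell genes (green) and interferon-inducible GTPases (purple) lie at the right near or below 0 on the y axis.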

How the data were processed

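RNA from the GC muscle of 2 WT mice and 2 LONP1 mKO mice aged 2 weeks was sequenced from libraries made with the NEBNext Ultra kit. Per the submitters' processing notes, the authors used FastQC 0.11.3, TopHat2 2.0.14 and Cufflinks 2.2.1 with the mm10 genome. The deposited tables have the layout of Cuffdiff and hold 1 FPKM value per group and gene, calculated by the authors from both mice. The gene model and the scaling between libraries are not given in the sources used here, and the methods of the study describe the RNA-seq of 6-week mice. The columns of the authors' own comparison (fold change, test statistic, p and q values, and the call) were not used. The groups came from the sample labels.

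The log2 change of FPKM + 1 was computed in Python 3.11.15 with pandas 2.3.3 and numpy 2.4.6, for rows of status OK with at least 1 FPKM in either group. Of 24346 rows, 10957 had not been tested by the authors, 12 had a failed estimate and 1819 were under 1 FPKM in both groups. With 1 value per group no test was made, and a gene was counted at 1.5-fold. Gene lists were matched to rows of 1 symbol, without rows of joined symbols, and described by counts and medians beside those of all genes. The genes named are Lonp1, the 20 largest changes in each direction among single gene symbols, genes that the study names and genes of the lists. Other genes are named with their values as examples, and a few genes and a sequence are not reported here. The genes and lists were chosen with earlier results of these data known, and the GTPase, Nr4a, SOCS and MHC class I lists were added after values were seen. The counting was tested on simulated data. Promoter motifs were searched in RefSeq sequences of GRCm38.p6. The alternatives tried were another fold, other pseudocounts, other expression floors, other scalings and fewer gene types.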

Additional observations from a re-analysis of the deposited data

Results flagged for a closer look

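The direction of the slow fibre genes differed between the ages. Their median log2 change was −0.997 at 2 weeks and 0.97 at 6 weeks. Among single genes, the change at 6 weeks minus that at 2 weeks was 3.90 for embryonic myosin Myh3, 3.41 for slow myosin Myh7, 3.38 for the light chain Myl6b and 3.31 for Opn1mw, a cone opsin gene that was at 3.40 FPKM in the WT group and 0.868 FPKM in the LONP1 mKO group at 2 weeks. It was −3.24 for Tgtp2, whose reads may be shared with Tgtp1. Nerve, neutrophil and Xist values also differed at 6 weeks, and their part in these values was not tested. Each age has 1 value per group and its own table, and these differences were not tested.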

How the results depend on the processing

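The counts of 298 higher and 93 lower genes depended on the threshold and the pseudocount. They were 102 and 27 at 2-fold, 457 and 163 with a pseudocount of 0.1 FPKM, and 479 and 182 without one. Under the other floors, scalings and gene sets, the higher genes numbered 206 to 310 and the lower genes 68 to 123. Leaving out genes of small RNAs, an alternative chosen after seeing the data, gave 296 and 93. All 40 genes named for their size kept their direction and stayed past 1.5-fold in each alternative that could be computed for them. They were picked for their large changes, so this outcome follows from the choice and says nothing about other genes. Of 67 list medians, 7 were past 1.5-fold, all 7 kept their sign and 5 stayed past 1.5-fold throughout. Among the 7 are the GTPase and Nr4a lists, which were gathered after values were seen. Nr4a1 and Nr4a3 are also on the immediate early list, which is among the 7 too. The median of the stress response transcription factors (0.63) was 0.46 over genes of at least 1 FPKM in both groups and 0.56 with the median of all genes set to 0, and that of the epidermal genes (0.66) was 0.54 over genes of at least 1 FPKM in both groups or with no floor. A further 19 list medians changed sign under at least 1 alternative. No paired analysis was possible because the tables hold 1 value per group, and for the same reason no mouse could be left out in turn. The depth behind each value is unknown, so no counting interval was given.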

Other observations

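Some genes of lipid synthesis were higher at 2 weeks. Of 20 cholesterol synthesis genes 4 were higher, against 2.58% of all genes, and 19 lay above both 0 and the median of all genes, with a median log2 change of 0.40. Msmo1 was at 3.78 FPKM in the WT group and 6.39 FPKM in the LONP1 mKO group (0.63), Sqle at 1.16 and 2.28 FPKM (0.61) and Insig1, a sterol sensor, at 5.42 and 8.79 FPKM (0.61). Of 15 genes of fatty acid and triglyceride synthesis 2 were higher, with a median of 0.17, the desaturase Scd2 (11.7 and 23.0 FPKM, 0.92) and the elongase Elovl6 (0.872 and 2.07 FPKM, 0.72). Ugt8a (1.94 and 7.66 FPKM) and Fa2h (1.96 and 5.94 FPKM), which make the galactolipids of myelin, were also higher. The Schwann cell list differed with these genes, with sums of 435 and 1261 FPKM, and its part in their values was not tested. At 6 weeks the median of the cholesterol list was −0.04, with 1 gene higher. Over all genes the 6-week median was also −0.04 and 7.4% were higher, so this list is near the background at that age.

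Of 16 secreted factors 6 were higher and 2 lower, against 2.58% and 0.805% of all genes, with a median of 0.06. Besides Fgf21 and Gdf15, already counted with the stress response, these were Fgf7 (1.28 and 3.53 FPKM, 0.99), Fgf6 (2.40 and 5.34 FPKM, 0.90), Stc2, a secreted glycoprotein (3.51 and 6.48 FPKM, 0.73), and Angptl4, an inhibitor of lipoprotein lipase (10.2 and 16.3 FPKM, 0.63). The lower genes were Gdf11 (4.37 and 2.22 FPKM, −0.74), related to myostatin, and Apln (7.28 FPKM in WT, −0.73). Myostatin itself, Mstn, was at 27.6 and 31.9 FPKM (0.20) and Igf1 at 7.85 and 7.16 FPKM (−0.12). Of the 8 SOCS family genes, Cish was lower and Socs3 higher (2.26 and 4.89 FPKM, 0.85), while Socs2, like Cish a target of growth hormone signalling, was at 8.69 and 5.80 FPKM (−0.51). Bcl6, a repressor, was at 12.1 and 32.4 FPKM (1.35).

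The lists of this paragraph had counts to be read against 2.58% higher and 0.805% lower of all genes, and a single gene past 1.5-fold is near that background. Of 21 glycolysis genes 0 were higher and 0 lower, with a median of 0.01, and of 13 glycogen genes 1 was higher, Ppp1r3c (153 and 234 FPKM, 0.61). Of 48 cytosolic ribosomal protein genes 45 lay above 0 and 39 above the median of all genes, with a median of 0.17, and 0 passed 1.5-fold. The joined row Rps27,Rps27rt, which is not in this count, was at 1.76 and 82.8 FPKM (4.92), and Rps27rt at the same locus was at 2638 and 2491 FPKM, so that reads may be divided here too. Of 16 neuromuscular genes 2 were higher, Ncam1 and Gadd45a, and the receptor subunit genes Chrna1 (9.46 and 10.9 FPKM) and Chrng (1.15 and 1.16 FPKM) were within the threshold. Of 26 extracellular matrix genes 0 were higher and 0 lower, and of 18 cell cycle genes 1 was higher, with a median of −0.11. In polyamine synthesis Azin1, which inhibits the breakdown of ornithine decarboxylase, was the 1 higher gene of 11 with a symbol of its own, with 20.1 and 32.2 FPKM. The row with the joined symbol Amd1,Amd2 was also higher (3.56 and 11.9 FPKM, 1.50), but Amd2 at the same locus was at 28.7 and 26.6 FPKM, so that reads may be divided between these rows.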
